A study of Homo sapiens with 6 samples.

Results

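The 10 genes described here encode actins and proteins that bind, cap, cross-link or stabilize actin filaments in contractile cells, namely FLNC, NEXN, ACTA2, ACTG2, TAGLN, CNN1, TPM1, TPM2, CALD1 and PALLD. They were chosen by name from 60617 genes, with earlier results of these data known. Of the 10, 9 were among the 16555 genes with values high enough to be tested. CNN1 was not. RNA-seq was performed on 6 libraries in 3 groups of 2. The parental group was 1205LuTR, a form of the human melanoma cell line 1205Lu that carries a GAL4-ELK1 reporter, given DMSO. The other groups were PBRT15 and PBRT16, paradox breaker resistant tumor lines derived from 1205Lu, each kept in 500 nM PLX8394. The labels give all 3 groups as 1205 Lu TR, and all were grown in the same medium with FBS and insulin. PLX8394 is a paradox breaker, a BRAF inhibitor made to block mutant BRAF without activating the pathway in cells that lack the mutation. The paper lists the PBRT lines of 1205Lu as generated in vivo. Each resistant line is a single line, and drug, line and origin in vivo go together, so their effects cannot be told apart. The sources used here do not say whether both libraries of a group are from separate cultures, and the p-values then reflect only the spread of these samples, which may be technical.

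Contractile cells pull with actin filaments and non-muscle or smooth muscle myosin II. Tropomyosins lie along the filament, caldesmon (CALD1) and calponin (CNN1) restrain its interaction with myosin, transgelin (TAGLN), palladin (PALLD) and nexilin (NEXN) bind the filament in stress fibers or at its anchoring points, and filamins such as FLNC cross-link filaments and tie them to the membrane. ACTA2 and ACTG2 encode the smooth muscle actins, which also appear in myofibroblasts. Many of these genes are classical targets of serum response factor (SRF) and its coactivators of the myocardin family.

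Values are normalized expression values without a known depth, printed for replicate 1 and then replicate 2, and their totals per library lay within 1.06-fold of each other. Mitochondrial genes held 6.30% and 6.15% of the total in the parental libraries and between 4.09% and 4.53% in the resistant ones. Genes were compared with limma on log2(value + 1) over all 6 libraries, with Benjamini-Hochberg adjustment over all tested genes. A gene is said to have risen or fallen at an adjusted p of at most 0.05. Fold changes are on the scale of log2(value + 1), which understates the change of genes with low values.

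Most of the contractile and actin-binding genes were higher in both resistant lines than in parental cells. In PBRT15, 8 of the 9 tested genes rose and 0 fell, where 21.6% of all tested genes rose and 19.5% fell. In PBRT16, 7 rose and 0 fell, where 21.1% of all tested genes rose and 19% fell. The genes that rose in both lines were FLNC, NEXN, TAGLN, TPM1, TPM2, CALD1 and PALLD, and ACTA2 rose in PBRT15. The median log2 fold change of the 9 tested genes was 1.77 in PBRT15 and 2.86 in PBRT16, and that of all tested genes was -0.0057 and -0.0021. Each of the genes that rose did so by more than 2-fold, a size of change that 13.8% of all tested genes reached upward and 9.85% downward in PBRT15, and 13.1% and 9.95% in PBRT16. Both comparisons use the same parental libraries. The genes were chosen with earlier results of these data known, so these counts are a description and not an independent test.

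**Figure D1:**
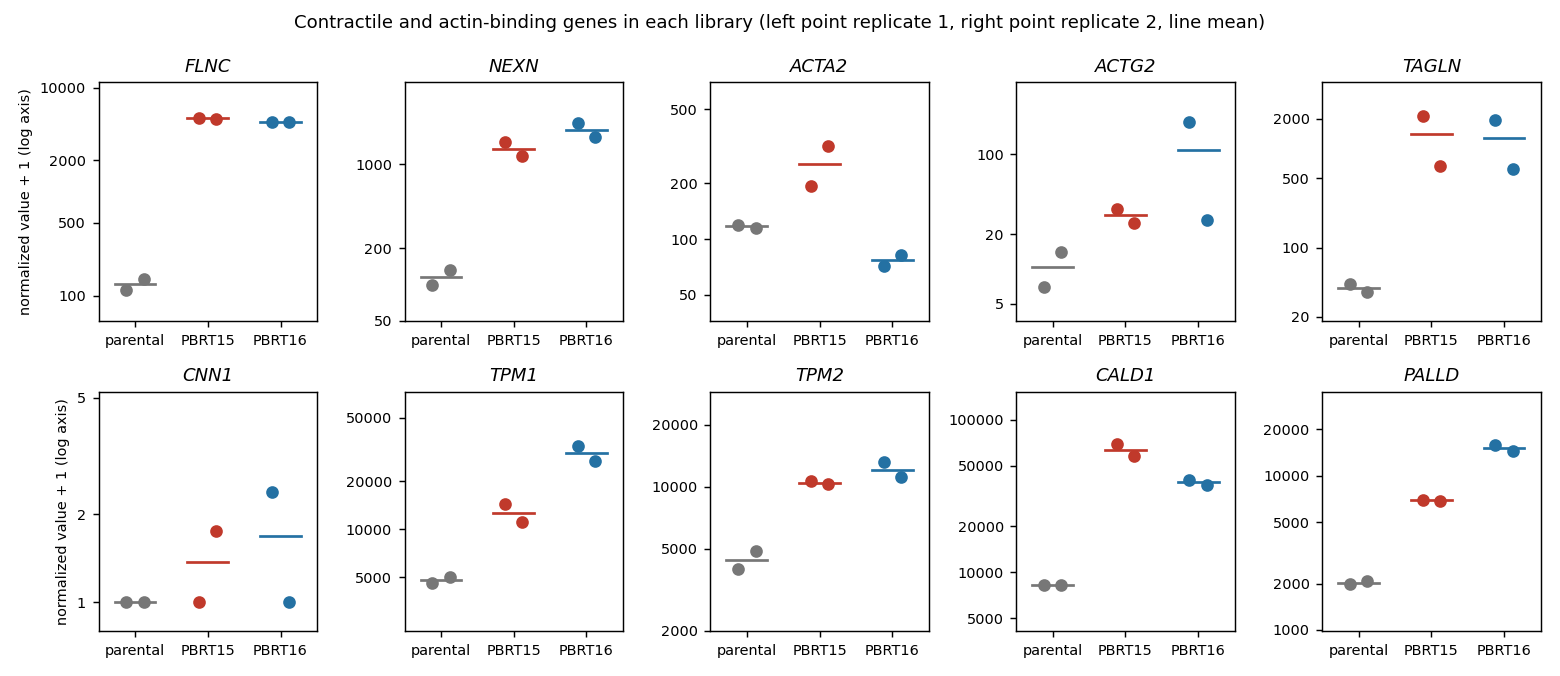
Normalized value + 1 (log axis) of each of the 10 genes in each of the 6 libraries, with 1 point per library (replicate 1 left, replicate 2 right) and a line at the mean of the group. FLNC, NEXN, TAGLN, TPM1, TPM2, CALD1 and PALLD lie above the parental libraries in all 4 resistant libraries, ACTA2 lies above them in PBRT15 and below them in PBRT16, and CNN1 lies at or near 0 throughout.

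FLNC encodes filamin C, the filamin of striated muscle, which is also found in stress fibers. Its values were 112 and 145 in the parental libraries, 5110 and 5035 in PBRT15 and 4721 and 4668 in PBRT16. The 4 resistant libraries lay close together and far above both parental libraries. FLNC rose 39.5-fold in PBRT15 (log2 fold change 5.30, standard error 0.16, adjusted p = 0.000101, limma) and 36.5-fold in PBRT16 (log2 fold change 5.19, standard error 0.16, adjusted p = 9.68e-05, limma). The difference between the resistant lines was -0.11 on the log2 scale (95% interval -0.52 to 0.30, adjusted p = 0.671, limma). The gene lies on chromosome 7 of GRCh38, from 128830406 to 128859274.

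NEXN encodes nexilin, an actin-binding protein of focal adhesions and of the Z-disc of muscle, and lies on chromosome 1 from 77888513 to 77943895. Its values were 97.4 and 132 in the parental libraries, 1527 and 1174 in PBRT15 and 2185 and 1678 in PBRT16. The groups did not overlap, and PBRT16 was the highest. NEXN rose 11.7-fold in PBRT15 (log2 fold change 3.55, standard error 0.24, adjusted p = 0.000818, limma) and 16.8-fold in PBRT16 (log2 fold change 4.07, standard error 0.24, adjusted p = 0.000557, limma). Between the lines its log2 difference was 0.52 (95% interval -0.12 to 1.15, adjusted p = 0.218, limma), which did not pass.

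CALD1 encodes caldesmon, which binds actin, myosin and calmodulin, and lies on chromosome 7 from 134744252 to 134970729. Its values were 8269 and 8249 in the parental libraries, 69508 and 58061 in PBRT15 and 40375 and 37428 in PBRT16. All 4 resistant libraries were far above the parental ones, and PBRT15 lay above PBRT16. CALD1 rose 7.69-fold in PBRT15 (log2 fold change 2.94, standard error 0.14, adjusted p = 0.000298, limma) and 4.71-fold in PBRT16 (log2 fold change 2.23, standard error 0.14, adjusted p = 0.000601, limma).

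PALLD encodes palladin, a scaffold that cross-links actin in stress fibers and focal adhesions, and lies on chromosome 4 from 168497052 to 168928457. Its values were 1971 and 2084 in the parental libraries, 6954 and 6893 in PBRT15 and 15930 and 14361 in PBRT16. The groups were well separated from one another and the replicates of each group lay within 1.11-fold. PALLD rose 3.41-fold in PBRT15 (log2 fold change 1.77, standard error 0.12, adjusted p = 0.000744, limma) and 7.46-fold in PBRT16 (log2 fold change 2.90, standard error 0.12, adjusted p = 0.000206, limma).

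TPM1 and TPM2 encode the alpha and beta tropomyosins. TPM1, on chromosome 15 from 63042620 to 63071915, had values of 4598 and 5000 in the parental libraries, 14352 and 11018 in PBRT15 and 33021 and 26902 in PBRT16. TPM2, on chromosome 9 from 35681992 to 35690056, had 3996 and 4858 in the parental libraries, 10700 and 10246 in PBRT15 and 13125 and 11092 in PBRT16. Both genes were higher in all 4 resistant libraries than in the parental ones, and TPM1 stepped up again from PBRT15 to PBRT16. TPM1 rose 2.62-fold in PBRT15 (standard error of the log2 fold change 0.19, adjusted p = 0.00551, limma) and 6.22-fold in PBRT16 (adjusted p = 0.000932, limma). TPM2 rose 2.38-fold in PBRT15 (standard error of the log2 fold change 0.16, adjusted p = 0.00448, limma) and 2.74-fold in PBRT16 (adjusted p = 0.00294, limma).

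TAGLN encodes transgelin, also called SM22 alpha, an early marker of smooth muscle differentiation, and lies on chromosome 11 from 117199370 to 117207464. Its values were 41.8 and 34.9 in the parental libraries, 2130 and 663 in PBRT15 and 1949 and 624 in PBRT16. All 4 resistant libraries were far above the parental ones, but within each resistant line replicate 1 was much the higher of the pair. TAGLN rose 30.4-fold in PBRT15 (log2 fold change 4.92, 95% interval 2.95 to 6.90, adjusted p = 0.00796, limma) and 28.2-fold in PBRT16 (log2 fold change 4.82, 95% interval 2.84 to 6.79, adjusted p = 0.00848, limma). The log2 difference between the resistant lines was -0.11 with a wide 95% interval, from -2.08 to 1.87 (adjusted p = 0.942, limma).

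**Figure D2:**
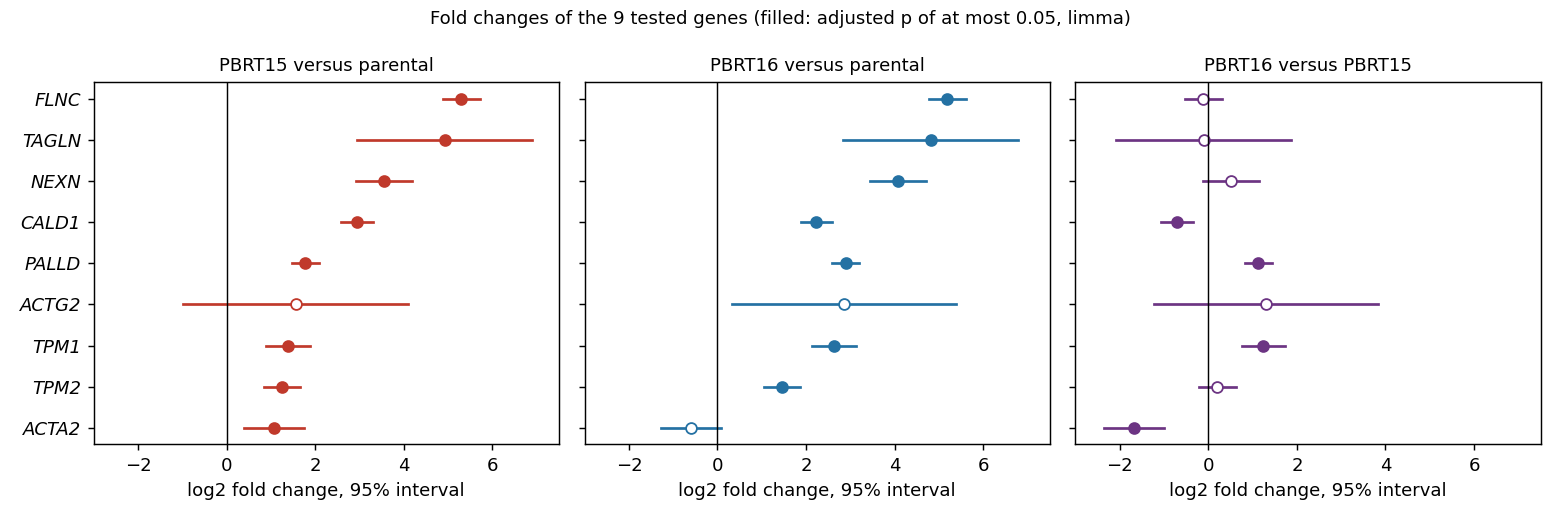
Log2 fold change of the 9 tested genes with its 95% interval, in PBRT15 against parental cells, PBRT16 against parental cells and PBRT16 against PBRT15. Filled points passed at an adjusted p of at most 0.05 (limma). FLNC, at 5.30 and 5.19, and TAGLN, at 4.92 and 4.82, are furthest to the right in both comparisons with parental cells, and the intervals of TAGLN and ACTG2 are the widest.

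The gap between the TAGLN replicates, on value + 1, was 3.21-fold in PBRT15, 3.12-fold in PBRT16 and 1.19-fold in parental cells. Of the 11722 tested genes with a mean value of at least 100, TAGLN was 1 of 3 whose replicate 1 was at least 2-fold above replicate 2 in both resistant lines. The others were ENSG00000225339 and ENSG00000283149, a count that was looked at after the values of TAGLN had been seen. A further 19 genes were at least 2-fold lower in replicate 1 in both lines, and 7 were 2-fold apart in opposite directions. None of the other contractile and actin-binding genes in that set had such a gap in both lines. TAGLN kept its call in both lines when any single library was left out, with a log2 fold change between 4.08 and 5.77 in PBRT15 and between 4.00 and 5.64 in PBRT16 over all alternative settings.

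**Figure D3:**
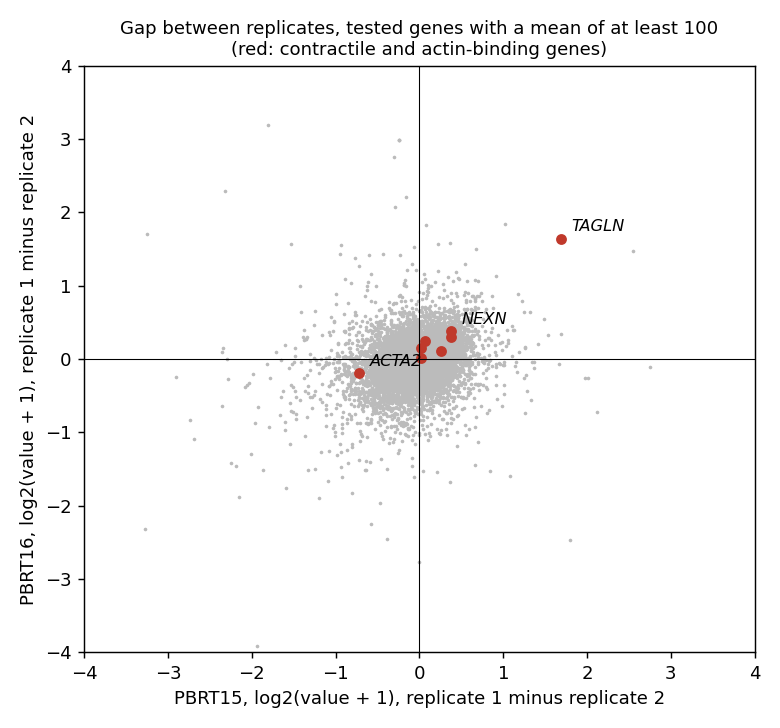
Difference between replicate 1 and replicate 2 on the scale of log2(value + 1), in PBRT15 (horizontal axis) and PBRT16 (vertical axis), for the 11722 tested genes with a mean value of at least 100, of which 1 lies outside the axes. The 8 contractile and actin-binding genes at that level are red, and TAGLN, at 1.68 and 1.64, is the red point at the upper right.

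The smooth muscle actins had mixed results. ACTA2, on chromosome 10 from 88935074 to 88991339, had values of 118 and 114 in the parental libraries, 191 and 316 in PBRT15 and 71.0 and 81.1 in PBRT16. PBRT15 lay above the parental libraries and PBRT16 below them, with no overlap in either case. ACTA2 rose 2.11-fold in PBRT15 (log2 fold change 1.08, standard error 0.26, adjusted p = 0.0290, limma). This call was lost without either parental library (adjusted p = 0.101 and 0.107, limma) and narrowly without either PBRT16 library (0.0520 and 0.0514). In PBRT16 the log2 fold change was -0.61 (95% interval -1.28 to 0.07, adjusted p = 0.125, limma), and it passed as a fall without PBRT15 replicate 1 (0.0337) or 2 (0.0332). ACTG2, on chromosome 2 from 73892314 to 73919865, had values of 5.98 and 13.0 in the parental libraries, 32.5 and 24.3 in PBRT15 and 191 and 25.7 in PBRT16. All resistant libraries were above the parental ones, and PBRT16 replicate 1 stood 7.20-fold above replicate 2 on value + 1. The log2 fold change of ACTG2 did not pass in PBRT15 (1.56, adjusted p = 0.257, limma) or PBRT16 (2.86, adjusted p = 0.0733, limma). Without PBRT16 replicate 1 it was 1.43 in PBRT16, and without replicate 2 it was 4.28 and passed (adjusted p = 0.0115, limma). In PBRT15 it passed without PBRT16 replicate 1 (adjusted p = 0.0490, limma) or 2 (0.0485).

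CNN1, on chromosome 19 from 11538767 to 11550323, encodes calponin 1, a marker of differentiated smooth muscle. It was listed at 0 in both parental libraries, at 0 and 0.75 in PBRT15 and at 1.38 and 0 in PBRT16. Its level was thus at the bottom of the measured range in all 6 libraries and no fold was computed.

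The resistant lines also differed from each other. Of the 9 tested genes, TPM1 and PALLD were higher and ACTA2 and CALD1 lower in PBRT16 than in PBRT15, where 7.5% of all tested genes were higher and 8.28% lower. With a fold of at least 2 as well, TPM1, PALLD and ACTA2 were called, against a background of 4.49% higher and 4.77% lower. PALLD was 2.18-fold higher in PBRT16 (log2 difference 1.13, standard error 0.12, adjusted p = 0.00827, limma) and kept its call when any single library was left out. TPM1 was 2.37-fold higher (log2 difference 1.24, standard error 0.19, adjusted p = 0.0200, limma), a call lost without PBRT16 replicate 1 (0.0876) or 2 (0.0588) and without PBRT15 replicate 2 (0.0655). ACTA2 was 3.21-fold lower in PBRT16 (log2 difference -1.68, standard error 0.26, adjusted p = 0.0207, limma), a call lost without PBRT16 replicate 1 (0.0935) or 2 (0.0788). CALD1 was 1.63-fold lower (log2 difference -0.71, standard error 0.14, adjusted p = 0.0342, limma), and this call was lost when any of the 6 libraries was left out, with adjusted p from 0.0585 to 0.144. For FLNC, TPM2, NEXN, TAGLN and ACTG2 no difference between the lines passed.

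Levels can be set beside one another per kb of the longest transcript. On that scale, mean values in parental cells ran from 0 for CNN1 through 4.59 for ACTG2, 10.1 for TAGLN, 14.0 for FLNC, 34.9 for NEXN, 41.0 for ACTA2, 346 for PALLD, 1213 for TPM1 and 1648 for CALD1 to 2802 for TPM2. The libraries of NEXN and ACTA2 touched, and the other neighbors in that order did not overlap. In PBRT15 the order per kb was CALD1 at 12729, TPM2 at 6629, TPM1 at 3206, PALLD at 1182, FLNC at 554, NEXN at 412, TAGLN at 369, ACTA2 at 89.6, ACTG2 at 13.8 and CNN1 at 0.20. TAGLN, with 175 and 563, spanned NEXN and FLNC there. In PBRT16 the ranges of CALD1 (7469 to 8057), TPM2 (7020 to 8307) and TPM1 (6799 to 8345) overlapped, so these 3 had no order. PALLD followed at 2586, then NEXN at 589 and FLNC at 513, whose ranges overlapped with each other and with that of TAGLN (165 to 515). ACTG2, with 12.5 and 92.7, spanned ACTA2 at 26.9, and CNN1 was lowest at 0.37. FLNC and NEXN were thus below ACTA2 on average in parental cells and above it in both resistant lines. The longest TAGLN transcript, of 3786 bases, sets its value per kb, and shorter transcripts would give a higher one.

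The shares of the tropomyosin genes in their family are given as a description. They depend on the longest transcripts, of 3957 bases for TPM1, 1580 for TPM2, 7064 for TPM3 and 4894 for TPM4. Shorter transcripts of a gene would give it a higher share, and which transcripts were expressed was not examined. Per kb, the sum over the 4 tropomyosin genes was 8939 and 9636 in the parental libraries, 16930 and 15310 in PBRT15 and 26039 and 21754 in PBRT16. TPM1 took 13.0% and 13.1% of that sum in the parental libraries, 21.4% and 18.2% in PBRT15 and 32.0% and 31.3% in PBRT16. TPM2 took 28.3% and 31.9% in the parental libraries, 40.0% and 42.4% in PBRT15 and 31.9% and 32.3% in PBRT16. TPM3, which encodes a broadly expressed tropomyosin, took 29.7% and 29.2% in the parental libraries and 8.83% and 11.4% in PBRT16, while its value did not pass in any comparison. TPM4 rose in PBRT16 (log2 fold change 1.29, adjusted p = 0.00442, limma), did not pass in PBRT15 (0.47, adjusted p = 0.0774, limma) and was higher in PBRT16 than in PBRT15 (0.83, adjusted p = 0.0354, limma).

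FLNA, the ubiquitous filamin and a paralog of FLNC, rose in both lines (log2 fold change 1.07 and 1.04, adjusted p = 0.0110 and 0.0120, limma). Per kb, FLNA stood at 2372, 4962 and 4901 on average in parental, PBRT15 and PBRT16 cells, above FLNC in every library.

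**Figure D4:**
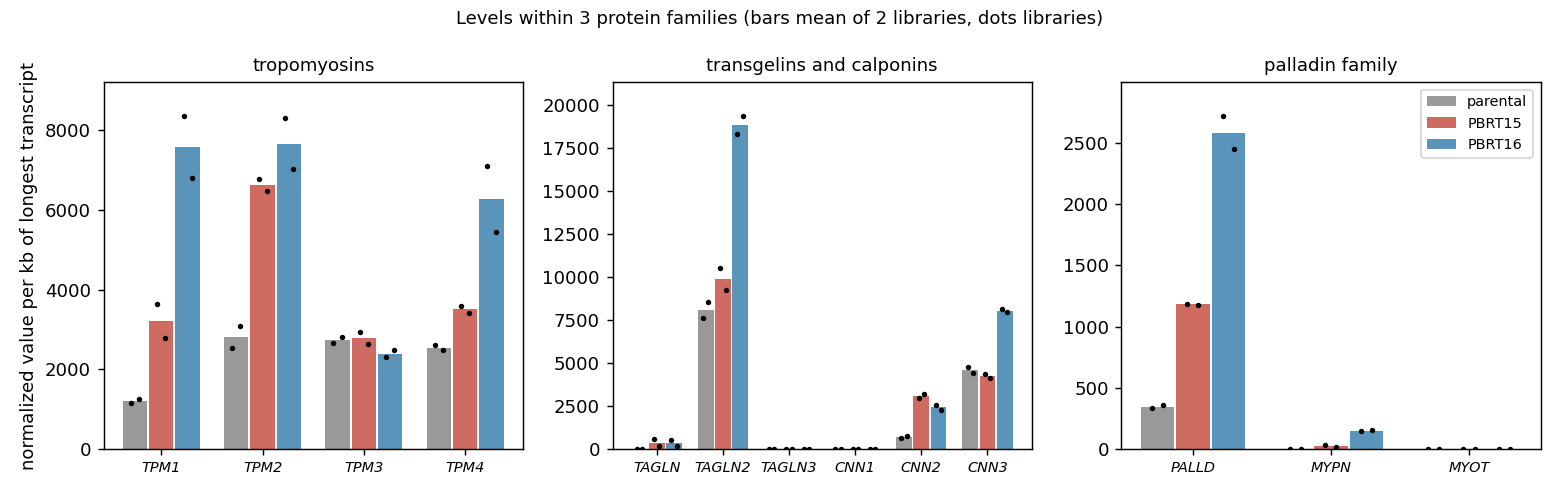
Normalized value per kb of the longest transcript for the tropomyosins, the transgelins and calponins and the palladin family, with bars at the mean of 2 libraries and a dot per library. TPM1 and TPM2 reach 7572 and 7663 in PBRT16, TAGLN stays under TAGLN2 and CNN1 stays near 0 in every group, and PALLD steps from 346 through 1182 to 2586.

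Smooth muscle actins made up little of the actin mRNA. ACTA2 held 0.106% and 0.0849% of the per kb sum of the 6 actin genes in the parental libraries, 0.106% and 0.156% in PBRT15 and 0.0306% and 0.0420% in PBRT16. ACTG2 held 0.0074% and 0.0133% in the parental libraries, 0.0248% and 0.0165% in PBRT15 and 0.113% and 0.0183% in PBRT16. In PBRT16 replicate 1 its share was thus above that of ACTA2. The cytoplasmic actins ACTB and ACTG1 held nearly all the rest. ACTG1 rose in both lines (log2 fold change 1.12 and 1.08, adjusted p = 0.00710 and 0.00782, limma) and ACTB in PBRT16 (0.66, adjusted p = 0.0378, limma). ACTA1, of skeletal muscle, was at most 21.2 and ACTC1, of the heart, at most 3.07 in any library.

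Other paralogs rose too. Of the 11 tested paralogs of the 10 genes, 4 (36.4%) rose in PBRT15 and 9 (81.8%) in PBRT16, and 0 fell in either line. Among all tested genes, 21.6% rose and 19.5% fell in PBRT15, and 21.1% and 19% in PBRT16. MYPN, which encodes the palladin relative myopalladin, had values of 11.0 and 11.9 in the parental libraries, 167 and 82.3 in PBRT15 and 834 and 880 in PBRT16. It rose in both lines (log2 fold change 3.25 and 6.11, adjusted p = 0.00260 and 0.000463, limma) and was higher in PBRT16 than in PBRT15 (log2 difference 2.86, adjusted p = 0.0112, limma). CNN2, the calponin of non-muscle cells, rose from 1491 and 1694 to 6680 and 7279 in PBRT15 and to 5791 and 5123 in PBRT16 (adjusted p = 0.000700 and 0.00115, limma). CNN3 and TAGLN2, broadly expressed relatives of CNN1 and TAGLN, rose in PBRT16 (log2 fold change 0.81 and 1.22, adjusted p = 0.00628 and 0.00295, limma) and did not pass in PBRT15 (-0.11 and 0.29, adjusted p = 0.467 and 0.143, limma). TAGLN3 and MYOT stayed at or below 2.39 in every library.

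Among 142 other genes of the actin cytoskeleton, in 7 lists that include the paralogs, 133 were tested. PBRT15 had 48 rises (36.1%) and 20 falls (15.0%) among them, and PBRT16 had 57 (42.9%) and 23 (17.3%). Of all tested genes, 21.6% rose and 19.5% fell in PBRT15, and 21.1% and 19% in PBRT16. Their median log2 fold change was 0.15 and 0.37. Leaving out 1 library gave 32 to 47 rises and 11 to 16 falls in PBRT15 and 39 to 50 rises and 13 to 22 falls in PBRT16. Between the lines, 24 (18%) were higher and 12 (9.02%) lower in PBRT16, with a median of 0.15, where 7.5% and 8.28% of all tested genes were called. These counts depend on each library. They were smaller whenever 1 was left out, and lowest without PBRT15 replicate 1. The share of all tested genes called in the fits without 1 library is not given here, so such drops cannot be set beside it.

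Of 39 genes of stress fibers and focal adhesions, 25 rose in PBRT15 and 22 in PBRT16, which is 64.1% and 56.4%, while 4 (10.3%) and 7 (17.9%) fell. The shares of all tested genes in PBRT15 and PBRT16 were 21.6% and 21.1% up and 19.5% and 19% down. PDLIM1, a LIM domain protein of stress fibers, rose from 749 and 672 to 3365 and 3411 in PBRT15 and to 6324 and 6540 in PBRT16. MICAL2, an enzyme that oxidizes actin, rose from 1479 and 1870 to 4563 and 4192 and to 16682 and 15286. PDLIM2 rose as well (log2 fold change 2.31 and 2.29, adjusted p = 0.00217 and 0.00221, limma). Not every gene of this list went up, since LMCD1 and CSRP1 were among those that fell in both lines, with log2 fold changes of -2.81 and -1.38 in PBRT15 and -1.81 and -0.92 in PBRT16 (adjusted p from 0.000222 to 0.00361, limma).

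Of 10 tested myosin II genes, PBRT15 had 4 (40%) that rose and 3 (30%) that fell, and PBRT16 had 6 (60%) and 2 (20%). For all tested genes these shares were 21.6% and 19.5% in PBRT15 and 21.1% and 19% in PBRT16. MYLK, the kinase that phosphorylates the myosin light chain, rose from 1109 and 1130 to 4693 and 4693 in PBRT15 and to 14028 and 12226 in PBRT16. MYH9, the main non-muscle myosin heavy chain, rose from 11050.2 and 15179 to 41109 and 40982 and to 78270.1 and 65015. MYL6, an essential light chain, rose about as much in both lines (log2 fold change 1.23 and 1.11, adjusted p = 0.00223 and 0.00295, limma). The other heavy chains MYH10 and MYH14 fell in both lines (log2 fold change -0.60 and -3.22 in PBRT15, adjusted p = 0.0177 and 0.000572, and -0.94 and -0.78 in PBRT16, adjusted p = 0.00477 and 0.0304, limma).

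The remaining lists had calls in both directions. Among 36 genes of filament turnover and branching, 7 rose in PBRT15 and 10 in PBRT16, and 6 fell in each line, shares of 19.4% and 27.8% up and 16.7% down that are near those of all tested genes. Among the genes called the same way in both lines, FMNL1, PFN2 and CAP2 had the largest rises by the mean of both (log2 fold change 2.36, 1.77 and 1.32 in PBRT15 and 3.24, 1.37 and 0.96 in PBRT16) and GSN, FMNL2 and DIAPH1 the largest such falls (-1.40, -0.95 and -0.83, and -1.49, -1.17 and -0.997). Among 7 bundlers and membrane linkers, PBRT15 had 0 rises and 2 falls (28.6%) and PBRT16 had 1 of each (14.3%). All tested genes had 21.6% rises and 19.5% falls in PBRT15, and 21.1% and 19% in PBRT16. PLS1 fell in both lines (-3.76 and -2.12).

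**Figure D5:**
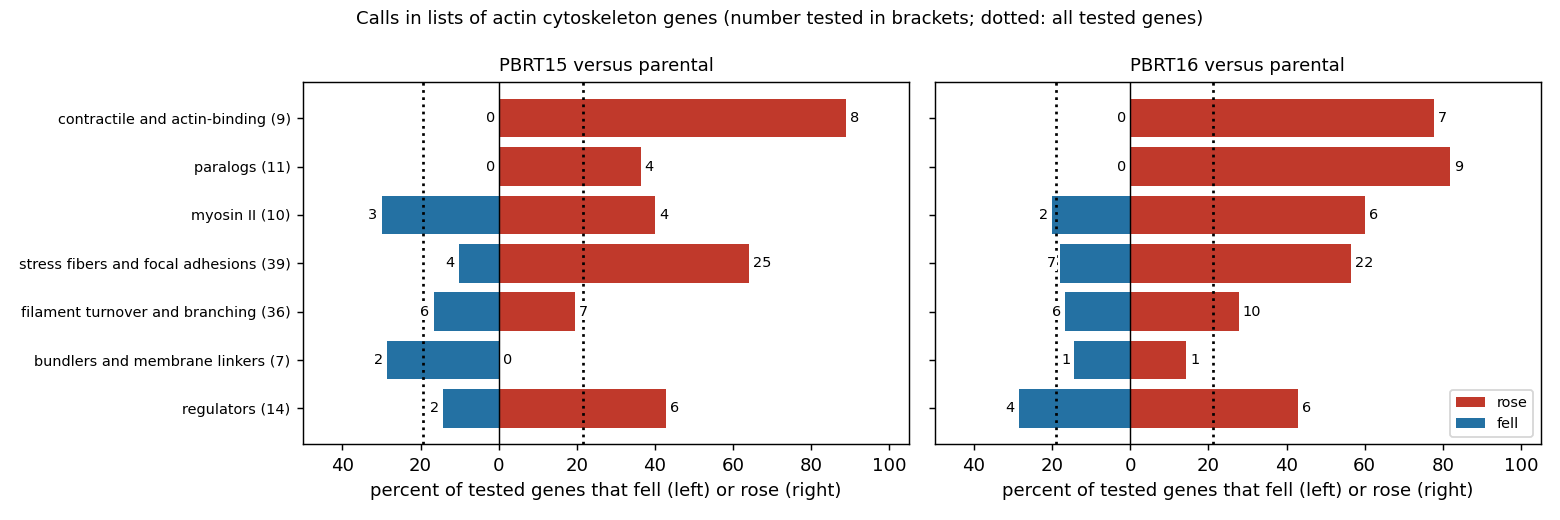
Percent of the tested genes of each list that fell (blue, left) or rose (red, right) (adjusted p of at most 0.05, limma) in each resistant line against parental cells, with the number called at the end of each bar and the share of all tested genes as dotted lines. The bars of the 9 contractile and actin-binding genes, with 8 and 7 rises, of the paralogs in PBRT16, with 9 of 11, and of the stress fiber list, with 25 and 22 of 39, reach well past the dotted line.

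Of 14 tested regulators, 6 (42.9%) rose in each line, while 2 (14.3%) fell in PBRT15 and 4 (28.6%) in PBRT16. In PBRT15 21.6% of all tested genes rose and 19.5% fell, and in PBRT16 21.1% and 19%. SRF itself did not pass in any comparison, with 929 and 1047 in the parental libraries, 812 and 1088 in PBRT15 and 1297 and 1182 in PBRT16. Its coactivator MRTFA rose from 321 and 405 to 633 and 621 in PBRT15 and to 1557 and 1322 in PBRT16 (log2 fold change 0.79 and 1.99, adjusted p = 0.0196 and 0.00143, limma), and MRTFB did not pass. MYOCD, the muscle-restricted coactivator myocardin, was listed at 0 in both parental libraries, at 19.7 and 39.4 in PBRT15 and at 7.67 and 4.55 in PBRT16. It reached the level for testing only in PBRT15 and is counted among the rises in both lines. The ternary complex factors, which compete with myocardin family proteins for SRF, were lower. ELK1 and ELK3 fell in both lines (log2 fold change -0.58 and -0.55 in PBRT15, adjusted p = 0.0240 and 0.0381, and -0.73 and -1.22 in PBRT16, adjusted p = 0.0122 and 0.00396, limma). ELK4 fell in PBRT16 (-0.79, adjusted p = 0.0207, limma) and did not pass in PBRT15 (-0.45, adjusted p = 0.0892, limma). 1205LuTR is a GAL4-ELK1 reporter line, and the part of the reporter in the ELK1 values was not tested.

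TGFβ signaling is another known inducer of contractile genes. TGFB1 rose from 617 and 615 to 1314 and 1641 in PBRT15 and to 1395 and 1834 in PBRT16. TGFBR1 rose from 2540 and 2680 to 5206 and 4602 and to 12865 and 15284. TGFBR2 and SMAD3 rose in both lines too (log2 fold change 1.21 and 0.60 in PBRT15, adjusted p = 0.00421 and 0.0268, and 1.04 and 0.85 in PBRT16, adjusted p = 0.00672 and 0.00976, limma). TGFB3 fell in PBRT16 (-2.08, adjusted p = 0.0112, limma) and did not pass in PBRT15 (-1.15, adjusted p = 0.0579, limma). SMAD2 and SMAD4 did not pass in either line, and TGFB2 was at most 7.67 in any library. Whether TGFβ signaling had a part in the change of any gene was not tested.

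The promoters of the genes were searched for letters known to be read by SRF and by TEAD factors, since most of the genes rose in both lines. ACTA2 rose in PBRT15 only, ACTG2 did not pass in either line and CNN1 was too low to be tested. RefSeq promoters of GRCh38.p14 were at hand for 9 of the 10 genes, 16 promoters in all. TAGLN had none and was not searched. Each promoter ran from 250 bases before to 50 bases after a RefSeq start, which need not be the end of the gene span given above. Only the 250 bases before the start were used. The CArG box, which SRF binds, is the same on both strands, and 1.16% of 35116 promoters held one. Among the 9 genes it was found in ACTG2, with 2 matches. Boxes in which 1 of the A or T letters of the core is G or C were in 5.96% of promoters, and were found in ACTA2, with 2 matches, and in CALD1. These matches are printed 5′ to 3′ on the strand of the gene, with the box in capitals, since they are the elements this gene class is known for.
ACTG2, chr2:73892883-73892922, + strand: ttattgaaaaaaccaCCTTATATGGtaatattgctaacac
ACTG2, chr2:73892920-73892959, + strand: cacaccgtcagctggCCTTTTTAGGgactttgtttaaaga
ACTA2, chr10:88952870-88952909, - strand: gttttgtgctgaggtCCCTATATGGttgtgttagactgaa
ACTA2, chr10:88952820-88952859, - strand: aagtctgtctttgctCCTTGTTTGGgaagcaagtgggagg
CALD1, chr7:134711458-134711497, + strand: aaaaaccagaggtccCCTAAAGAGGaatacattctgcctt

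FLNC and NEXN held no CArG box of either kind in these windows. Whether SRF had a part in the change of any gene was not tested. The letters CATTCC, read by TEAD factors, were searched on both strands and were in 11.9% of promoters. They were found in FLNC, NEXN, ACTA2, CALD1 and PALLD. For each of FLNC, NEXN and PALLD, the match nearest to its RefSeq start is printed. Its letters, or their reverse complement GGAATG, are in capitals.
FLNC, chr7:128830288-128830323, + strand: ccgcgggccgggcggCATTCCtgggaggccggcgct
NEXN, chr1:77888529-77888564, + strand: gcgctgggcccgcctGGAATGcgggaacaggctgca
PALLD, chr4:168631509-168631544, + strand: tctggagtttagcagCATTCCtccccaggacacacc

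A match is a description of the letters and not a measured site, and the lack of one says only that these letters are not in this window. Several genes had more than 1 promoter, such as CALD1 with 4 and PALLD with 3. The printed PALLD match lies inside the PALLD span given above, and the printed CALD1 box lies outside the CALD1 span. Which of the starts these cells use was not tested. The shares of promoters given above are per promoter, so the number of genes with a match cannot be set beside them. No promoter of TPM1, TPM2 or CNN1 held any of these matches before its start.

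The cell type markers were checked beside these genes. Their calls stand beside shares of all tested genes of 21.6% up and 19.5% down in PBRT15, and 21.1% and 19% in PBRT16. Of 5 tested smooth muscle markers, PBRT15 had 1 rise and 2 falls, and PBRT16 had 2 rises and 1 fall. MYOCD, at most 39.4, rose in both lines (log2 fold change 4.85 and 2.79, adjusted p = 0.00120 and 0.00564, limma). DES, at most 17.6, rose in PBRT16 (1.95, adjusted p = 0.0243, limma). MYOCD reached the level of 10 needed for testing only in PBRT15, and DES only in PBRT16. Each was thus tested only because of a group where it was high, and these calls near the floor are a description. MYH11, at most 36.3, fell in PBRT15 (-1.27, adjusted p = 0.0292, limma). KCNMB1 was listed at 0 in all 6 libraries and LMOD1 was at most 13.1. The 10 markers summed to 5933 to 6504 in parental cells, 1690 to 2054 in PBRT15 and 1558 to 1940 in PBRT16, most of it SYNM. MYL9, the regulatory light chain of smooth muscle, was at most 3.26. The 11 striated muscle markers summed to between 362 and 462 in every library, most of it TTN, and of 6 tested 2 rose in PBRT15 and 1 fell in PBRT16. The 10 fibroblast markers summed to 6046 to 6956 in parental cells, 136381 to 146758 in PBRT15 and 18813 to 25124 in PBRT16, and of the 8 tested, 7 rose in PBRT15, while PBRT16 had 3 that rose and 2 that fell. The collagen I genes COL1A1 and COL1A2 and the surface protein gene THY1 carried most of the sum in PBRT15, with means of 63881, 39913 and 19666, against 12187, 17.7 and 7.49 in PBRT16 and 23.3, 18.6 and 2.23 in parental cells. PDGFRB, a growth factor receptor gene, rose in both lines, from a mean of 217 to 3289.95 and 5850.1, and LUM and POSTN were at or below 4.13 in every library. Their part in the values of the contractile and actin-binding genes was not tested. In bulk samples fewer cells of a type and less RNA per cell cannot be told apart. The 6 pericyte markers summed to 601 to 652, 2059 to 2832 and 2042 to 2646, most of it NOTCH3, with COX4I2 at 0 throughout. Of the 3 tested pericyte markers, 3 (100%) rose in PBRT15 and 1 (33.3%) in PBRT16, and 0 fell in either line. Endothelial markers summed to at most 93.0 in any library, and of 3 tested 1 rose and 2 fell in PBRT15 and 1 rose in PBRT16. The 6 immune markers summed to 820 to 1264 in parental cells, 2202 to 2727 in PBRT15 and 2147 to 3132 in PBRT16, nearly all of it CD68, a lysosomal protein, which rose in both lines (log2 fold change 1.27 and 1.35, adjusted p = 0.0273 and 0.0229, limma). PTPRC and CD3E were at or below 2.72. The 8 melanoma lineage markers summed to 12314 to 15491 in parental cells, 847 to 953 in PBRT15 and 2214 to 2242 in PBRT16. The sum in parental cells was mostly S100B and SOX10, which were at or below 1.67 in all 4 resistant libraries. Most of the sum in the resistant lines was MITF, a regulator of the melanocyte lineage, at 109 and 113 in the parental libraries, 823 and 927 in PBRT15 and 2210 and 2159 in PBRT16. Of the 5 tested markers MITF rose and SOX10 and S100B fell in both lines. The pigment cell genes TYR, TYRP1, DCT, MLANA and PMEL were at most 29.4 in any library, parental ones included, and TYR was listed at 0 in all 6.

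Neighboring genes can share reads with some of the genes. Whether counting used the strand is not stated. In GENCODE v44, TAGLN overlaps PCSK7 on the opposite strand, with values of 1262 and 1478 in the parental libraries, 1980 and 2036 in PBRT15 and 1573 and 1647 in PBRT16, and ENSG00000280143 on the same strand, with values from 32.6 to 98.6. Neither showed the gap between replicates that TAGLN did. Of the windows of 1 read length in the longest TAGLN transcript, 65.1% also occurred in ENSG00000280143, 2.37% of those of FLNC occurred in ENSG00000224163, and 0% of those of the other 8 genes occurred in another gene. ACTA2 overlaps FAS on the opposite strand, at 254 and 340 in the parental libraries, 741 and 708 in PBRT15 and 320 and 334 in PBRT16, so that ACTA2 values of this size are uncertain if strand was not used. TPM1-AS, opposite TPM1, had 12.7 and 15.0 in the parental libraries, 31.9 and 46.8 in PBRT15 and 146 and 108 in PBRT16, and NEXN-AS1, opposite NEXN, was at most 38.4. PALLD overlaps DDX60L on the opposite strand, at 237 and 327 in the parental libraries, 1387 and 1512 in PBRT15 and 1137 and 1016 in PBRT16. The values of these partners, not per length, were below those of TPM1, NEXN and PALLD in each resistant library.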

How the data were processed

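A stranded mRNA kit and paired-end reads were used. By the study's methods, the authors used RSEM with GRCh38 and GENCODE for quantification, and the authors used DESeq2 for their own tests. STAR 2.6.1a and Picard stand in the submitters' processing notes. What the authors deposited is a normalized signal per gene, not in whole numbers and on a common scale in all libraries. How it was normalized is not stated, no single step returned whole reads, and depth and counting error are therefore unknown. No count test was run.

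Gene IDs without their version gave GENCODE v44 symbols for 60357 of 60617. Tested genes (16555) reached 10, after scaling to library totals, in 2 or more libraries, with a sum of 15 or more. The fit was made in limma 3.58.1 (R 4.3.3) on log2(value + 1), with 3 groups, 6 libraries and no block for replicates, and had 3 residual and 1.89 prior degrees of freedom. Adjustment was by Benjamini-Hochberg over all tested genes. Steps were tested on simulated data. The members and lists were chosen with earlier results of these data known. Named were the 10 genes, their paralogs and regulators, and from each other list the 3 largest rises and 3 largest falls among genes called the same way in both lines; MYL9, marker genes and genes that overlap a member are named as values beside a result. Some genes and 1 list that the rule names are not reported here, though counts over all lists hold them. Alternatives were other pseudocounts, scalings and filters, 4 libraries in the fit, a trend in the prior spread, a fold of at least 2, leaving out each library, and a replicate block.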

Additional observations from a re-analysis of the deposited data

Results flagged for a closer look

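The effects of the resistant lines against the shared parental libraries differed for 18 named genes by the test of PBRT16 against PBRT15 (limma, adjusted p of at most 0.05). Among the contractile and actin-binding genes the log2 difference was -1.68 for ACTA2, 1.24 for TPM1, -0.71 for CALD1 and 1.13 for PALLD. Among the paralogs it was 0.83 for TPM4, 0.92 for CNN3, 0.93 for TAGLN2 and 2.86 for MYPN, all higher in PBRT16. Among myosin II, stress fiber and bundling genes it was 1.48 for MYLK, 2.44 for MYH14, 0.92 for PDLIM1, 1.87 for MICAL2, 1.00 for LMCD1 and 1.65 for PLS1. MYH14, LMCD1 and PLS1 fell in both lines and fell further in PBRT15. Among the regulators it was 1.19 for MRTFA, -2.06 for MYOCD, -0.67 for ELK3 and 1.52 for TGFBR1. MYOCD reached the level for testing only in PBRT15, the line where it was higher.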

How the results depend on the processing

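With 2 libraries per group and unknown depth, genes with low values such as ACTG2, ACTA2 and MYOCD are the least certain. The rises of FLNC, NEXN, TAGLN, TPM1, TPM2, CALD1 and PALLD in both lines kept their call under each alternative tried. In PBRT15 the other actin cytoskeleton genes numbered 29 higher and 11 lower with a fold of at least 2, and 10 lower without a filter. In PBRT16, 9 were lower with a fold of at least 2 and 15 without a filter. ACTA2 was called lower in PBRT16, as 1 of the 10 genes, with 4 libraries in the fit (adjusted p = 0.0314, limma), and lost its call in PBRT15 without a filter (0.0739). ACTG2 was called with 4 libraries in PBRT15 (0.0451) and with a trend in PBRT16 (0.0262). Between the resistant lines, 1 of the 10 genes was higher and 0 lower without a filter, where adjusted p was 0.0575 for TPM1, 0.0544 for ACTA2 and 0.105 for CALD1, and 1 was lower with the replicate block, with 4 libraries and with a fold of at least 2, since CALD1 was lost (0.0517 with the block and 0.0636 with 4 libraries). Of the other actin genes, 14 were higher and 4 lower without a filter, 14 and 5 with a fold of at least 2, 19 lower with the trend, 4 lower with 4 libraries and 5 lower with the replicate block. In the last comparison the direction of ACTG2 turned without PBRT16 replicate 1 (log2 differences ran from -0.13 to 2.72 when leaving out libraries), and that of TAGLN without PBRT15 replicate 1 (0.73) or PBRT16 replicate 2 (0.71), from a range of -0.95 to 0.73.

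Leaving out each library in turn gave, of the 10 genes, 7 to 8 higher and 0 lower in PBRT15, 7 to 8 higher and 0 to 1 lower in PBRT16, and 1 to 2 higher and 0 to 1 lower between the lines. For the other actin genes it gave 32 to 47 higher and 11 to 16 lower, 39 to 50 and 13 to 22, and 6 to 19 and 2 to 4. Where an arm was left with 1 library, it is assumed to vary like the other groups. Counts over all tested genes in these fits are not given here.

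The main fit did not pair libraries with the same replicate number. The deviations of same-numbered libraries correlated at 0.018 for parental and PBRT15, 0.038 for parental and PBRT16 and 0.136 for PBRT15 and PBRT16. In both resistant lines, 3 genes with a mean of at least 100 were at least 2-fold higher in replicate 1 and 19 were at least 2-fold lower. Another 7 were 2-fold apart in opposite directions. Whether the same-numbered libraries of the resistant lines share a factor was not tested. With the replicate block the number of genes called moved from 3569 higher and 3227 lower to 3333 and 2870 in PBRT15, from 3490 and 3151 to 3333 and 2902 in PBRT16, and from 1242 and 1370 to 878 and 968 between the lines. Among the 10 genes the block changed the call of CALD1 between the lines and no other.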
